A study of Mus musculus with 3 samples.

Results

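The genes described here are 34 mouse genes of the integrated stress response and the unfolded protein response, listed by name, with no threshold on measured values, when earlier results of these data were known. They fall into 2 groups, 16 genes for ATF4, its partners and its amino acid targets, and 18 genes for the sensors, chaperones and degradation factors of the endoplasmic reticulum (ER). A probe set was taken as a gene's when the platform annotation gave exactly 1 gene symbol for it, which yielded 86 probe sets for the 34 genes, out of 18193 genes named in the same way on the array. A pair of further probe sets carried the symbol of Phgdh together with other symbols and was left out. The cells were NIH3T3, an immortalised mouse fibroblast line. One group carried the empty vector, was grown in DMEM with 10% calf serum, was untreated and has 2 arrays, called empty vector 1 and empty vector 2. The other carried an shRNA against Retsat, the gene of retinol saturase, is described in the labels as very resistant to the organic peroxide tert-butyl hydroperoxide, and has 1 array. The labels used here do not say whether the cells were pools or single clones, nor how the RetSat shRNA cells were grown or treated. The study set shRNA cells from a screen for peroxide resistance against empty-vector cells, and the question here is how the 34 stress response genes stood on the 3 arrays.

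ATF4 is a transcription factor whose translation goes up when kinases phosphorylate the initiation factor eIF2, as happens when amino acids are short, when proteins misfold in the ER or under oxidative stress. It raises genes for amino acid synthesis and import, together with Ddit3 (CHOP), Trib3 and the phosphatase subunit Ppp1r15a, which turns the signal off. In the ER, misfolded proteins draw the chaperone Hspa5 (BiP) away from the sensors Ern1 (IRE1), Eif2ak3 (PERK) and Atf6. IRE1 splices the mRNA of Xbp1, ATF6 is cut to free a transcription factor, and both factors raise chaperones and the machinery that removes misfolded proteins. Arrays of this kind measure mRNA, so translation of Atf4, splicing of Xbp1 and cleavage of Atf6 were not measured.

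The promoters are shown first because some of them carry the elements by which both groups are known. RefSeq promoter windows (GRCm38.p6, 250 bases before to 50 after the start site) were matched by symbol for 30 of the 34 genes, in 33 windows, since Psat1, Slc7a1 and Vldlr had more than 1 start site. Slc7a5, Hyou1, Manf and Atf6 had no entry. The ER stress element, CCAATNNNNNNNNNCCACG searched on both strands, is bound by ATF6 with the CCAAT-binding factor NF-Y. It occurred in the windows of 6 of the 15 ER genes with a window (Hspa5, Hsp90b1, Dnajc3, Pdia6, Calr and Canx), in 0 of 15 ATF4 genes, and in 0.119% of all 32851 windows. The stretches below hold the element in capitals with the bases around it in lower case, each as the gene reads. On Calr, and at the second element of Hsp90b1, the element lies on the opposite strand, so the capitals show its reverse complement. Hspa5 lies at chr2:34772005-34772063 (plus strand), Hsp90b1 at chr10:86705513-86705676 (minus), Dnajc3 at chr14:118937807-118937865 (plus), Pdia6 at chr12:17266471-17266529 (plus), Calr at chr8:84847055-84847113 (minus) and Canx at chr11:50325780-50325838 (minus).
Hspa5: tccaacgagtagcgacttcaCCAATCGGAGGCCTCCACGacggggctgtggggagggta
Hsp90b1: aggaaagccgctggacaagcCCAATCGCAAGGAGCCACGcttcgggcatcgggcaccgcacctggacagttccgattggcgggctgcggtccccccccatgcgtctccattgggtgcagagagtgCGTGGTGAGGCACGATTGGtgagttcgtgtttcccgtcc
Dnajc3: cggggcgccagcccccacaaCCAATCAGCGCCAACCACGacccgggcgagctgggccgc
Pdia6: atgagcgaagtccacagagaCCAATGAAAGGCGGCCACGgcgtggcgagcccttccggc
Calr: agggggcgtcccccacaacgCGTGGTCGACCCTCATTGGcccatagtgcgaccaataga
Canx: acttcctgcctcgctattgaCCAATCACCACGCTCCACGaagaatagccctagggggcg

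The ATF4-C/EBP element, TGATGNAAN on both strands, is the composite site by which ATF4 acts with C/EBP partners. It occurred in 4 of the 15 ATF4 genes with a window (Trib3, Asns, Vldlr and Nupr1), in 1 of 15 ER genes (Herpud1) and in 3.95% of all windows. In Trib3 it lay after the start site and is not printed. Asns lies at chr6:7693210-7693252 (minus strand), Nupr1 at chr7:126625553-126625601 (minus), Vldlr at chr19:27216799-27216847 (plus) and Herpud1 at chr8:94386296-94386344 (plus). Only the Asns element reads forward along its gene, and the others appear as the reverse complement. The core CCACG, which every ER stress element contains, was found in 12 of 15 ER genes, 10 of 15 ATF4 genes and 32.8% of all windows. The UPR element TGACGTGN was found in Hspa5 alone of the members and in 2.01% of all windows. These are matches of letters, and binding was not measured.
Asns: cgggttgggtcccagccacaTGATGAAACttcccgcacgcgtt
Nupr1: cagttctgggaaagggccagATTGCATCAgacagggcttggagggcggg
Vldlr: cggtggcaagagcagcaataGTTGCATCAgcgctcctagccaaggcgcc
Herpud1: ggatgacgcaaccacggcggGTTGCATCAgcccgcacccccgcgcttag

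Signals are probe set intensities, and differences are given as log2(intensity + 10.2), where 10.2 is the 25th percentile of all deposited values; the offset makes differences of dim genes smaller. The 3 arrays had the same trimmed mean intensity (250.002), and the shRNA left 15.2% of the empty-vector signal of Retsat at its brighter probe set. All 9 fibroblast markers used to check the label passed the intensity filter, among them Col1a1 (6803 to 9040 across the arrays). Of the markers of other cell types, 2 of 5 for epithelium, 2 of 5 for blood, 2 of 4 for neurons, 0 of 4 for endothelium and 0 of 3 for muscle passed it, and none read above 142 on any array. Empty vector 1 stood apart from the other arrays. Over 10843 tested genes the SD of the log2 difference was 0.739 between the empty-vector arrays, 0.754 between RetSat shRNA and empty vector 1 and 0.336 between the shRNA array and empty vector 2. The median tested gene read 0.14 higher on both of the other arrays than on empty vector 1, while those arrays had a median difference of 0.00. Each member is therefore given on all 3 arrays, and each comparison against both controls. As a sign of RNA quality, the 3'-over-5' signal of the Gapdh control probe sets was 0.841 on empty vector 1 and 0.931 on each of the others, and that of Actb was 1.53 on both controls and 1.65 on RetSat shRNA. The 3' control probe set for the transferrin receptor read 232 on empty vector 1, 37.3 on empty vector 2 and 42.7 on RetSat shRNA. Empty vector 2 and RetSat shRNA also share the number 2 in their titles, and the labels do not say whether it marks a shared culture, day or batch. The part of these values, and of the shared number, in the differences from each control was not tested.

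No member passed the test. Each gene was represented by its brightest probe set, and all 34 passed the intensity filter (a mean at or above the median of all probe sets), Vldlr only through empty vector 1. In limma's moderated test of RetSat shRNA against empty vector, with Benjamini-Hochberg adjustment over all tested genes, 0 of the 34 members and 0% of all genes passed an adjusted p of 0.05; 108 genes, none of them a member, had an unadjusted p under 0.05. The lowest unadjusted p among members were 0.0816 for Trib3 and 0.0895 for Atf6 (adjusted p 0.9999 in limma for both). Leaving aside models, 2 arrays against 1 allow no exact permutation p below 0.333. Nothing in the labels says that the empty-vector arrays were separate cultures, so the p-values rest on a spread that may be purely technical. On RetSat shRNA no member differed 2-fold or more from each control, a size that 0.0922% of all tested genes reached upward and 0.498% downward.

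By order alone, the RetSat shRNA array had the highest of the 3 signals for 7 of the 16 ATF4 genes and 9 of the 18 ER genes, beside 34.4% of all tested genes, and the lowest for 2 and 4, beside 25.4%. After centring each array on its median the highest were 8 and 10, beside 37.3%. That centring made RetSat shRNA highest for Mthfd2 and Eif2ak3 and took Cebpg and Hsp90b1 from lowest to between, and quantile normalization took Hspa5 from highest to lowest. The larger contrast lay with empty vector 1. It read lowest of the 3 for 11 ATF4 genes and 9 ER genes (52.6% of all tested genes) and highest for 5 and 8 (34.2%). It was at least 2-fold lower than both other arrays for Trib3, Shmt2, Slc7a5 and Dnajb9 (1.86% of all tested genes), and at least 2-fold higher for Vldlr and Hsp90b1 (7.92%). Vldlr, also counted among the 5 ATF4 genes highest there, passed the filter only through empty vector 1, so its high place there is tied to the filter. RetSat shRNA lay within 0.25 log2 of empty vector 2 for 11 ATF4 genes and 15 ER genes (68.5% of all tested genes), whereas the empty-vector arrays lay that close to each other for 3 and 6 (31.4%).

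**Figure D1:**
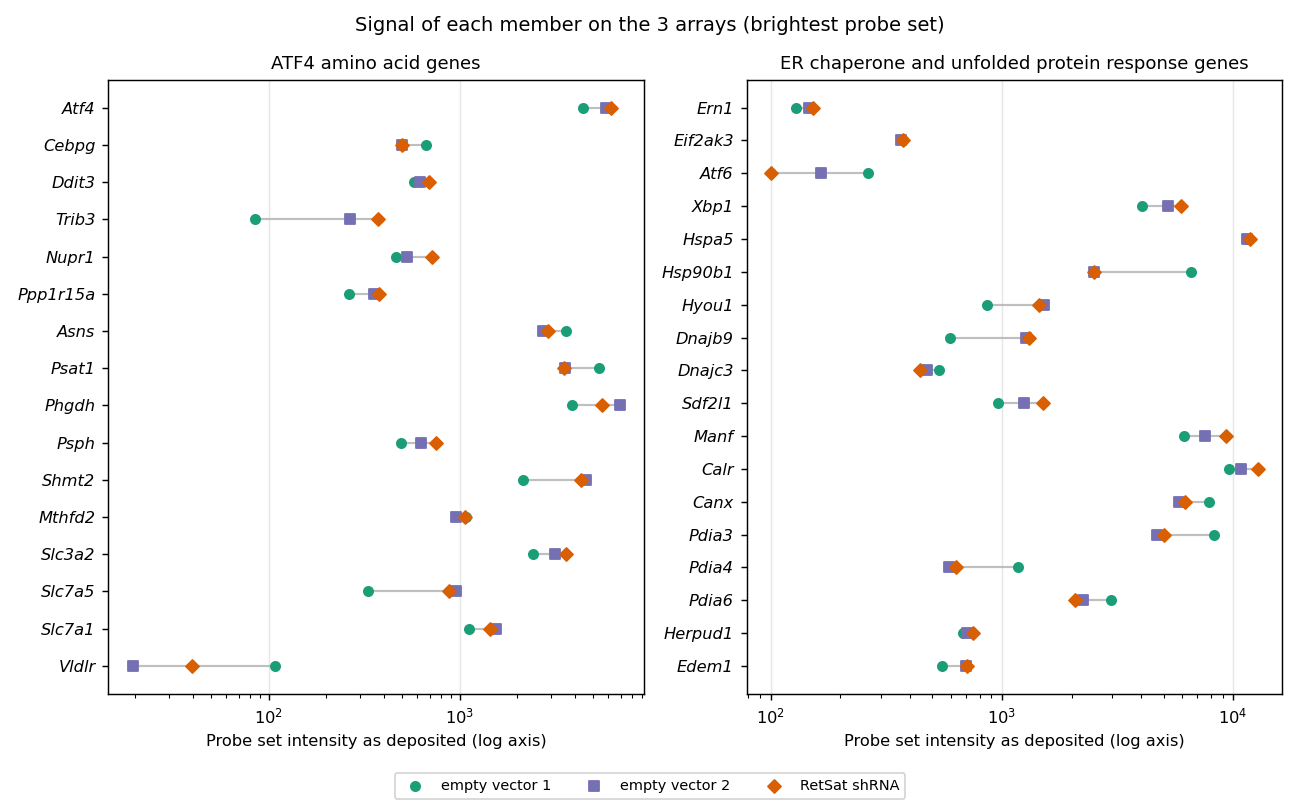
Intensity as deposited (log axis) of each member's brightest probe set on empty vector 1 (circles), empty vector 2 (squares) and RetSat shRNA (diamonds), 1 array each, with a grey line from the lowest to the highest. Squares and diamonds lie close together in most rows. The circle lies at least 2-fold to the left of both for Trib3, Slc7a5, Shmt2 and Dnajb9. It lies at least 2-fold to the right for Vldlr, whose place is tied to the filter, and Hsp90b1.

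Empty vector 1 was the lowest array for 11 of the 16 ATF4 genes (52.6% of all tested genes). It was the highest for 5 (34.2%), Asns, Psat1, Mthfd2, Cebpg and Vldlr, the last of which passed the filter only through that array. The median difference of RetSat shRNA over the 16 genes was 0.50 log2 from empty vector 1 and 0.08 from empty vector 2. All tested genes had medians of 0.14 and 0.00. The controls alone differed by a median of 0.37 in these genes (empty vector 2 above empty vector 1), beside 0.14 for all genes. Set against the controls' mean, the shRNA array was 0.25 higher, beside 0.07. Less the median of all genes, the difference from empty vector 1 was 0.36 as deposited and 0.13 after quantile normalization. Centring the arrays shifts every gene alike, so it cannot change this value.

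Atf4 itself, the factor of the group, read 4410.5 on empty vector 1, 5861 on empty vector 2 and 6195 on RetSat shRNA. That is 5136 ± 1026 (SD, n = 2) with the empty vector. The shRNA array lay 0.49 log2 above empty vector 1 and 0.08 above empty vector 2 (limma adjusted p = 0.9999). A second Atf4 probe set read 870, 2227 and 2385 in the same order. Both probe sets place empty vector 1 lowest and the other arrays close together. Cebpg, a C/EBP factor that can pair with ATF4, read 662, 500.0 and 496.5, so here empty vector 1 was the highest. Its other probe sets above the filter gave 183, 243 and 278, and 69.4, 24.7 and 33.8, so the order of the arrays for Cebpg differed between probe sets. The dimmest of these passed the filter only through empty vector 1.

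Trib3, a pseudokinase that ATF4 and CHOP raise and that dampens their action, had the widest gap between RetSat shRNA and empty vector 1 of the members' brightest probe sets. It read 84.7 on empty vector 1, 266 on empty vector 2 and 374 on RetSat shRNA. The empty-vector mean was 175 ± 128 (SD, n = 2), and the shRNA array stood 2.02 log2 above empty vector 1 and 0.48 above empty vector 2. The controls were 1.54 apart, more than the distance from empty vector 2 to the shRNA array. Its other probe set kept the same order, at 73.5, 163 and 310 (0.89 log2 above empty vector 2). The difference from the controls' mean was 1.25 log2 (SE 0.647, limma adjusted p = 0.9999). Its unadjusted limma p fell under 0.05 in 4 alternatives, between 0.0227 with a robust variance prior and 0.0462 with centred arrays, all with an adjusted p of 0.9999 or 1 in limma.

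Of the other regulators, Ddit3, the pro-apoptotic factor CHOP, read 574, 617 and 688 in the same order of arrays. A second probe set gave 90.3, 48.0 and 72.0, where empty vector 1 and not RetSat shRNA was highest. Nupr1, a small stress-induced chromatin protein, read 461, 531 and 716, and 229, 371 and 450 at its second probe set. RetSat shRNA was the highest array at both Nupr1 probe sets, by 0.43 log2 over empty vector 2 at the brighter one, where the controls lay 0.20 apart. Ppp1r15a (GADD34), which directs dephosphorylation of eIF2, read 264, 357 and 380. RetSat shRNA was highest here too, by 0.09 log2 over empty vector 2.

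The genes of serine and one-carbon synthesis did not share a direction. Psph, which makes the last step to serine, read 496 on empty vector 1, 631 on empty vector 2 and 752 on RetSat shRNA, with 563 ± 95.6 (SD, n = 2) in the controls. Phgdh, the first enzyme of that route, read 3853, 6874 and 5561, and Psat1, the enzyme between them, 5378.5, 3536 and 3494. At the brightest probe sets, then, the shRNA array was the highest for Psph, between the controls for Phgdh and the lowest for Psat1. For Psat1 it was lowest by only 0.02 log2 from empty vector 2, and other probe sets of Phgdh and Psat1 placed it otherwise. The other 3 Phgdh probe sets gave 4329, 5602 and 6014, then 2566, 3306 and 3449, then 914, 1569 and 1518, so empty vector 1 was lowest at all 4. RetSat shRNA was highest at the first and second of these 3. The second Psat1 probe set gave 4015, 3077 and 3500.0, with RetSat shRNA between the controls. Shmt2, the mitochondrial enzyme that splits serine into glycine and a one-carbon unit, read 2148, 4570 and 4308. The controls themselves differed by 1.09 log2, and the shRNA array was 0.08 below empty vector 2. Its dimmer probe sets gave 965, 1511 and 1552.5, then 262.5, 301 and 279, then 119.6, 318 and 153, with empty vector 1 lowest each time.

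Mthfd2, the mitochondrial folate enzyme that works downstream of Shmt2, read 1081, 961.5 and 1072, and 784, 867 and 892 at its second probe set. These span 0.17 log2 between the controls at the brighter probe set, and RetSat shRNA turned from between the controls to highest when the arrays were centred. Asns, which makes asparagine and is a classical ATF4 target, read 3606, 2730 and 2886.5, and 2696.5, 2386 and 2579.5. Empty vector 1 was the highest for Asns at both probe sets, against the direction of Atf4.

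All 3 amino acid carriers among the members had their lowest signal on empty vector 1, as did 52.6% of all tested genes. Of the carriers listed among the further ATF4 targets and tested, Slc1a4 and Slc1a5 were lowest there too, but Slc38a2 was highest there (5815, 5549 and 5258) and Slc7a3 lay between (39.6, 41.6 and 38.6). Slc7a5 (LAT1), the light chain of the large neutral amino acid exchanger, read 333 and 955 on the controls and 882 on RetSat shRNA. Slc3a2 (4F2hc), the heavy chain that brings it to the surface, read 2407, 3165 and 3609. The light chain therefore differed by 1.49 log2 between the controls and by -0.11 between RetSat shRNA and empty vector 2, and the heavy chain by 0.39 and 0.19. Slc7a1 (CAT1), a carrier of arginine and lysine, read 1122.5, 1544.5 and 1433, and 715, 1017 and 909 at its other probe set. For Slc7a5 and Slc7a1 the shRNA array fell between the controls, and for Slc3a2 it was highest. Vldlr, a lipoprotein receptor that ATF4 is known to raise under ER stress, went the opposite way, at 108, 19.4 and 39.5. It read highest on empty vector 1, the only array through which it passed the filter, so that order is tied to the filter. Its other probe sets were below the filter.

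**Figure D2:**
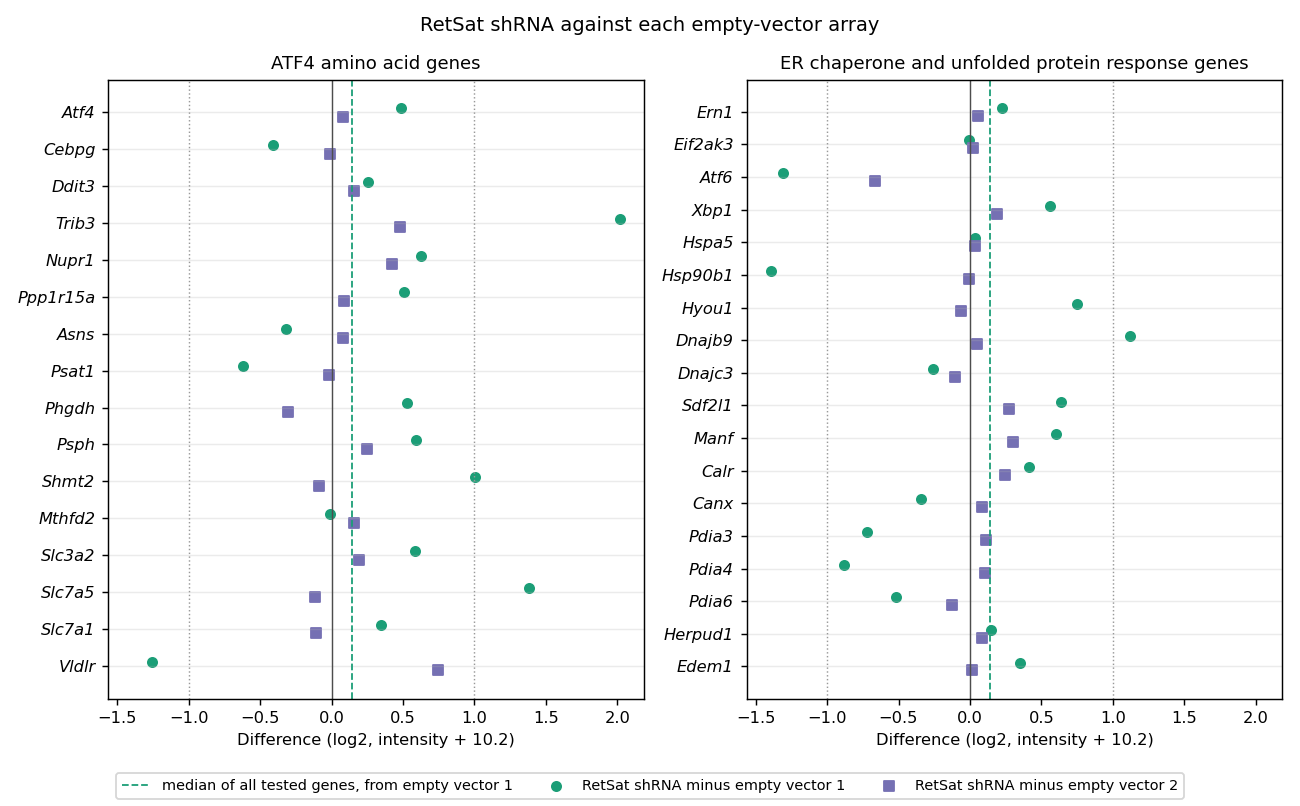
Difference in log2(intensity + 10.2) of RetSat shRNA from empty vector 1 (circles) and empty vector 2 (squares) for each member's brightest probe set, with dotted lines at 2-fold and a dashed line at the median of all tested genes against empty vector 1 (0.14). Differences from empty vector 2 lie between -0.67 (Atf6) and 0.75 (Vldlr), whereas those from empty vector 1 reach 2.02 (Trib3) and -1.39 (Hsp90b1).

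The ER genes were split between the controls. Their median difference was 0.09 log2 from empty vector 1 and 0.05 from empty vector 2, with 0.08 from the controls' mean, beside 0.14, 0.00 and 0.07 for all tested genes. Between the controls themselves (empty vector 2 above empty vector 1) it was 0.03. Relative to all genes, the difference from empty vector 1 was -0.05 as deposited and -0.06 after quantile normalization. Centring cannot change this value either.

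Among the sensors, Eif2ak3 (PERK), the kinase that links the ER to eIF2 and so to ATF4, read 374 on empty vector 1, 367 on empty vector 2 and 372 on RetSat shRNA. Ern1 (IRE1), the kinase and RNase that splices Xbp1, read 129, 146 and 153, and 32.2, 66.7 and 39.7 at a dimmer probe set. At the brightest probe sets of both kinases, the largest difference between arrays in mRNA signal was 0.22 log2, for Ern1. Atf6, the membrane-bound factor, read 264, 165 and 100.2, the lowest on RetSat shRNA by 0.67 log2 from empty vector 2 and 1.31 from empty vector 1. Its empty-vector mean was 214 ± 69.7 (SD, n = 2), and it did not pass limma (adjusted p = 0.9999). Only one of the other Atf6 probe sets kept this order, at 136.5, 79.2 and 62.1, while the other gave 136, 163 and 143. Xbp1, the transcription factor that IRE1 activates, read 4029, 5216 and 5940. All 4 Xbp1 probe sets had RetSat shRNA highest and empty vector 1 lowest, the dimmer ones at 2628.5, 3147 and 3210, at 1068.5, 1379 and 1669, and at 158, 239 and 387.5. At the brightest, the shRNA array was 0.19 log2 above empty vector 2 and the controls were 0.37 apart.

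The main chaperones did not share an order of the arrays. Hspa5 (BiP), the chaperone most often read as a gauge of ER stress, gave 11506 on empty vector 1, 11497 on empty vector 2 and 11810 on RetSat shRNA. That is 0.04 log2 above the mean of the controls, and under quantile normalization it turned to -0.09. Its other probe sets gave 6721, 5124 and 6358, and 347, 746 and 525, with no common order. Hsp90b1 (GRP94), the HSP90 of the ER, read 6572, 2512 and 2497. It was 1.38 log2 lower on empty vector 2 than on empty vector 1, with the shRNA array 0.01 below empty vector 2. At its second probe set the gap between the controls was wider, 3961.5 against 325, and RetSat shRNA read 237. Hyou1 (GRP170), which exchanges the nucleotide on BiP, read 858, 1521 and 1452.5, the opposite order of the controls. Its dimmer probe sets gave 421, 720.5 and 588, and 61.9, 22.0 and 29.9, of which the last passed the filter only through empty vector 1.

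Of the BiP co-chaperones, Dnajb9 (ERdj4) read 599, 1272 and 1315, so that it was at least 2-fold lower on empty vector 1 than on either other array and differed by 0.05 log2 between those. Dnajc3 (p58IPK), which also inhibits eIF2 kinases, read 532.5, 476 and 442.5. Its 3 other probe sets repeated the high empty vector 1 value with wider gaps, at 503, 194 and 180.5, at 273, 145 and 173, and at 201, 87.0 and 58.3. Sdf2l1, a stress-induced partner of BiP and its co-chaperones, read 962, 1240.1 and 1504. Manf, a secreted stress-induced protein that binds BiP, read 6122, 7546.5 and 9306. For Sdf2l1 and Manf the shRNA array was the highest, by 0.28 and 0.30 log2 over empty vector 2, where the controls were 0.36 and 0.30 apart. The controls averaged 1101 ± 197 for Sdf2l1 and 6834 ± 1007 for Manf (SD, n = 2 each). Neither passed limma (adjusted p 0.9999 for both), and each has only 1 probe set.

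The lectin chaperones, which hold newly made glycoproteins, parted. Calr (calreticulin), the soluble one, read 9609, 10806.5 and 12816, with 10208 ± 847 (SD, n = 2) in the controls. Its other probe sets kept that order, at 7742, 10421 and 11176 and at 6489, 9986 and 11706. Canx (calnexin), the membrane-bound one, read 7827, 5819 and 6161. Calreticulin was thus highest on RetSat shRNA at all 3 probe sets (by 0.25 log2 over empty vector 2 at the brightest), whereas calnexin was highest on empty vector 1 at its brightest. The dimmer Canx probe sets gave 3331, 1196 and 1405.5, and 366, 398 and 520.4, of which the last had empty vector 1 lowest.

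The 3 protein disulfide isomerases among the members, which form and reshuffle disulfide bonds, read highest on empty vector 1, as did 34.2% of all tested genes. Relatives outside the members did not all share this, since P4hb, the main isomerase, was lowest there (8272, 10603 and 10730.3). Pdia5 was highest there, but by only 0.02 log2 over empty vector 2 (466, 461 and 459). Pdia3 (ERp57), which works with the lectins, read 8286, 4664 and 5033. Pdia4 (ERp72) read 1177, 589 and 634, and Pdia6 (P5), which is known to act on IRE1 and PERK, read 2960.0, 2251 and 2064. At these probe sets RetSat shRNA differed from empty vector 2 by 0.11, 0.10 and -0.12 log2, while the controls differed by -0.83, -0.99 and -0.39. Dimmer probe sets of Pdia3 (76.3, 61.4 and 36.5) and Pdia6 (112, 76.2 and 94.6) also had empty vector 1 highest. There RetSat shRNA differed more from empty vector 2, by -0.62 and 0.28 log2.

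The degradation genes lay within 0.25 log2 between RetSat shRNA and empty vector 2, as did 68.5% of all tested genes. Herpud1, which organises the ubiquitin ligase complex that clears misfolded proteins, read 679.7, 709 and 752, and 576.5, 420.1 and 477.5 at its second probe set. Edem1, which trims mannose from proteins bound for disposal, read 550.3, 698 and 703, and 446, 418.5 and 377. For both genes the second probe set had empty vector 1 highest and the brightest had it lowest. At the brightest probe sets RetSat shRNA was 0.08 log2 above empty vector 2 for Herpud1 and 0.01 for Edem1. At the second ones the differences were 0.18 and -0.15, so the sign for Edem1 turned.

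Several probe sets of a gene did not always place the arrays in the same order. Of the 86 member probe sets 72 passed the filter, and 24 members had more than 1 that did. Those below it, of Atf4, Vldlr, Slc7a1, Dnajc3, Pdia4, Eif2ak3 and Ern1, read at most 54.4 on any array and were not read further. The difference of empty vector 2 from empty vector 1 had the same sign at all of a gene's probe sets for 15 of the 24. It was mixed for Ddit3, Mthfd2, Cebpg, Hspa5, Herpud1, Canx, Edem1, Hyou1 and Atf6. The dimmest probe sets of Cebpg and Hyou1 above the filter passed it only through empty vector 1, so their high values there are tied to the filter. Hyou1 was mixed only because of that probe set, whereas Cebpg was mixed without it too. The difference of RetSat shRNA from empty vector 1 agreed in sign for 15, and that from empty vector 2 for 13. Agreement was counted for the members only, so whether these counts are usual on the array is not known. Atf4, Trib3, Nupr1, Xbp1 and Calr had RetSat shRNA highest at every probe set above the filter. These were picked out after their values were seen. Probe sets of a gene come from the same RNA and are not replicates.

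**Figure D3:**
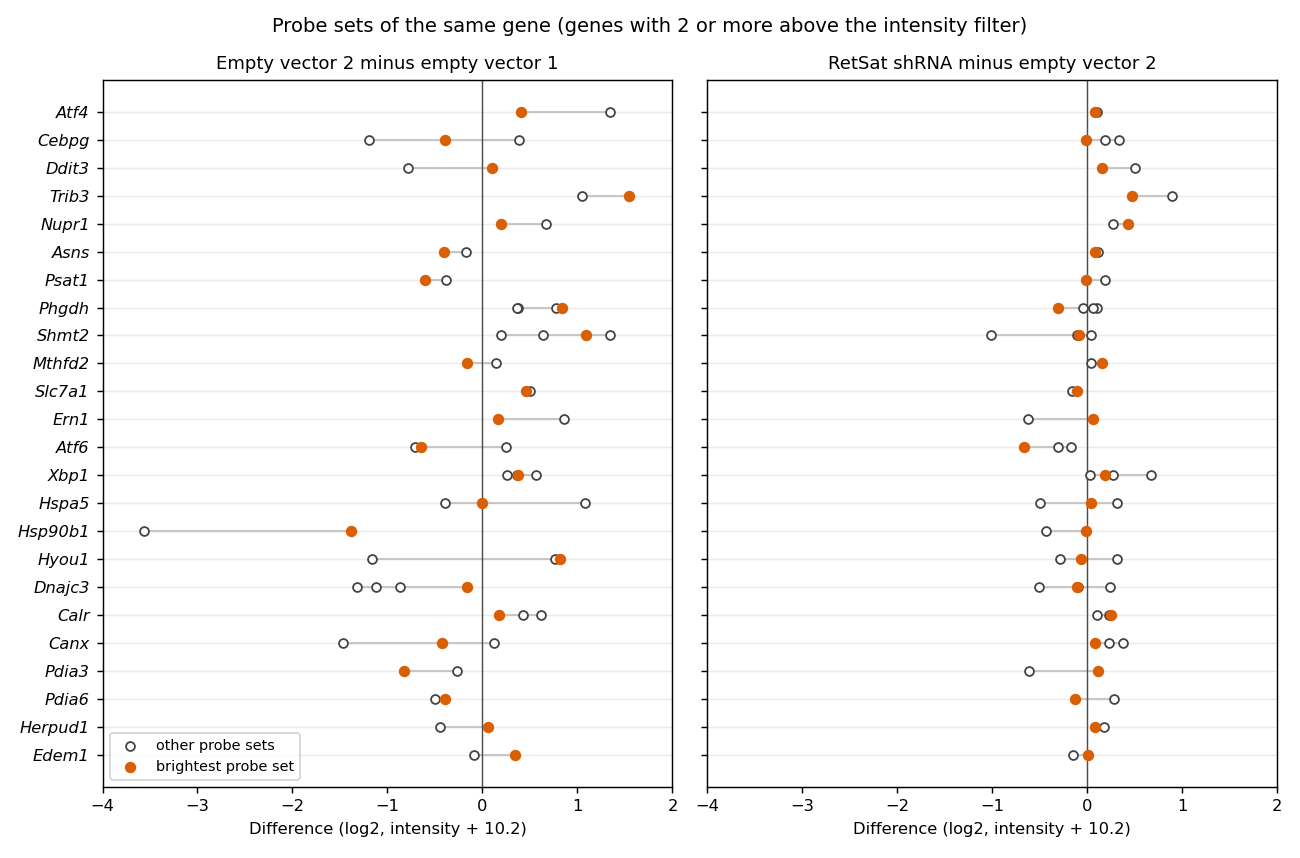
Log2 difference of empty vector 2 from empty vector 1 (left) and of RetSat shRNA from empty vector 2 (right) at every probe set above the filter, for the 24 members with more than 1; filled points are the brightest probe set and open points the others. On the left Hsp90b1 reaches -3.57 and 9 genes have points on both sides of 0. Hyou1 is among these only because of a probe set that passed the filter through empty vector 1 alone.

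The promoter elements printed above did not sort the genes by direction. At the brightest probe sets of the 6 genes with an ER stress element, Hsp90b1, Dnajc3, Pdia6 and Canx read highest on empty vector 1 (34.2% of all tested genes). Calr read lowest there (52.6%), while Hspa5 read 11506 and 11497 on the controls. RetSat shRNA was the highest array for Hspa5 and Calr (34.4% of all tested genes), the lowest for Hsp90b1, Dnajc3 and Pdia6 (25.4%), and between for Canx. Hsp90b1 was lowest by only 0.01 log2 from empty vector 2 and turned to between with centred arrays. Hspa5 turned to lowest after quantile normalization. Other probe sets of Hspa5, Dnajc3, Pdia6 and Canx included some with another order of the arrays. At the brightest probe sets of the genes with an ATF4-C/EBP element, Trib3, Nupr1 and Herpud1 were lowest on empty vector 1 and highest on RetSat shRNA. Asns and Vldlr were highest on empty vector 1, where Vldlr's place is tied to the filter. The second Herpud1 probe set (576.5, 420.1 and 477.5) had empty vector 1 highest and RetSat shRNA between the controls. No difference between genes with and without an element was tested.

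The rest of the pathway was read from 7 lists chosen by function. None of their genes passed limma. Of 22 tested further ATF4 targets (27 listed, 25 on the array), RetSat shRNA was highest for 11 and lowest for 5, and empty vector 1 was lowest for 15, beside 34.4%, 25.4% and 52.6% of all tested genes. Their median difference was 0.48 log2 from empty vector 1 and 0.08 from empty vector 2, beside 0.14 and 0.00 for all tested genes. Chac1, which degrades glutathione, read 440.5 and 659 on the controls and 956 on RetSat shRNA. Ddit4 (REDD1), an inhibitor of the growth kinase mTORC1, read 337, 683 and 978. Slc1a4, a carrier of neutral amino acids, read 177.5, 382 and 479.9. These 3, and the genes taken by rank from the lists below, were chosen by a rank that asks for RetSat shRNA at one end of the order. Its place there is fixed by the choice.

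The aminoacyl-tRNA synthetases, which charge tRNAs and include known ATF4 targets, stood in another order. RetSat shRNA was highest for 1 of 19 tested and lowest for 9, and empty vector 1 was highest for 12, beside 34.4%, 25.4% and 34.2% of all tested genes. Their median difference was -0.26 log2 from empty vector 1 and -0.08 from empty vector 2. Yars read 728, 723 and 592, Cars 441, 336 and 277, and Tars 2318, 1304 and 1126. The share with RetSat shRNA highest was 5.26% here and 43.8% among the 16 ATF4 members. In that list empty vector 1 was at least 2-fold above both other arrays for Rars, Lars and Eprs (chosen after their values were seen; 7.92% of all tested genes), for example 3277 against 514 and 462 for Rars. Of 11 tested genes for eIF2, its exchange factor eIF2B, its kinases and a phosphatase subunit, RetSat shRNA was highest for 2 and lowest for 2 (34.4% and 25.4% of all tested genes). Empty vector 1 was at least 2-fold above both others for 5 of them (7.92% of all tested genes), Eif2ak2, Eif2ak4, Eif2b1, Eif2b3 and Eif2s2, again named after their values were seen. By rank, Eif2b5 read 960.3, 915 and 821, Eif2b2 1725.5, 2349.8 and 2481, and Eif2ak1, the kinase HRI, 586, 659 and 677.

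In the ER, RetSat shRNA was highest for 11 of 16 tested degradation genes and lowest for 1, for 10 and 3 of 20 further folding enzymes, and for 9 and 1 of 15 translocation and signal peptidase genes, beside 34.4% and 25.4% of all tested genes. Under quantile normalization the 9 became 7. The median differences of these lists were 0.55, 0.33 and 0.24 log2 from empty vector 1 and 0.07, 0.08 and 0.08 from empty vector 2, beside 0.14 and 0.00 for all tested genes. Relative to all genes the translocation list was 0.10 above empty vector 1 as deposited and -0.15 after quantile normalization, so its direction flips with the scaling. Selenos, which ties the ATPase Vcp to the ER membrane, read 2028, 2920.5 and 3280.4, Edem2 read 326, 476 and 528.5, and Vcp itself 6906, 6269.8 and 5692. Ero1b, an oxidase that recharges the disulfide isomerases, read 125, 154 and 316.5, which is 1.27 and 0.996 log2 above the controls and just under the 2-fold rule on that scale. With centred arrays 1 gene of its list passed that rule, and 0 did after quantile normalization. Txndc11 read 166, 155 and 249, and Uggt1, the folding sensor of glycoproteins, 902, 583 and 456. Ssr3, Spcs1 and Sec61b led the translocation list by the same rank, which asks for RetSat shRNA at one end. Each was highest on RetSat shRNA, by 0.14 to 0.17 log2 over empty vector 2.

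The list of proteases and relatives of the ATF6 arm had 7 tested genes, with RetSat shRNA highest for 1 and lowest for 3 (34.4% and 25.4% of all tested genes). Creb3l3 read 59.0, 23.1 and 119 at low intensity, the site-1 protease Mbtps1 1037, 1068.5 and 948, and Creb3 555, 543 and 514. Mbtps1, which makes the first cut in ATF6, and Creb3 were lowest on RetSat shRNA by 0.17 and 0.08 log2 from empty vector 2. They too were taken by the rank that asks for RetSat shRNA at one end of the order.

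**Figure D4:**
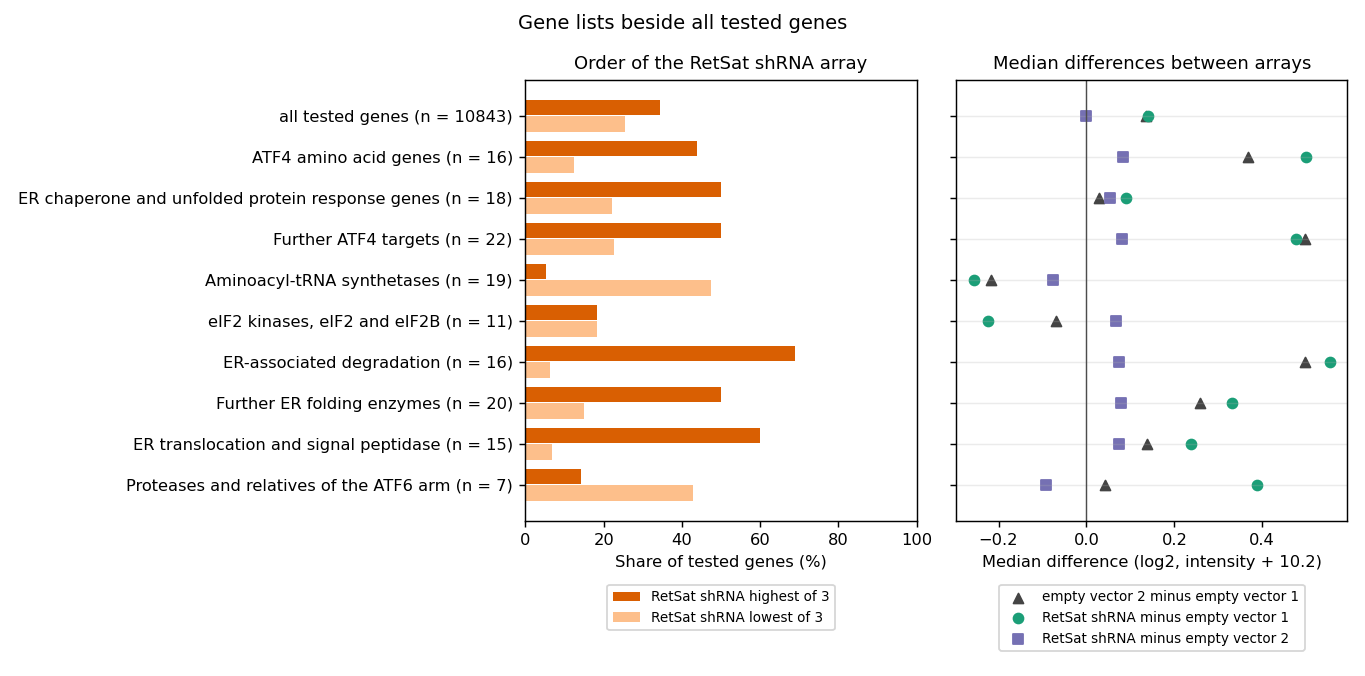
Left, percent of tested genes of each list for which RetSat shRNA had the highest or the lowest of the 3 signals; right, median log2 difference of RetSat shRNA from each empty-vector array and between the controls. The synthetases have 5.26% highest and 47.4% lowest, the degradation genes 68.8% and 6.25%, and medians against empty vector 2 lie near 0 in every list.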

How the data were processed

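Linear intensities of 45101 probe sets were deposited by the authors for each of 3 arrays. Which software summarised the probes is, in the labels and files, not stated, and no detection calls were used. Gene symbols came from the platform annotation, older ones were matched through RefSeq (GRCm38.p6), and only the 34945 probe sets with exactly 1 symbol were used. Differences are in log2(intensity + 10.2), with no further normalization. Each gene was taken by its brightest probe set, and tested if that mean log2 signal was at or above the median probe set (10843 of 18193 genes). The comparison was fitted over all tested genes with limma 3.58.1 in R 4.3.3 (lmFit and eBayes, two-sided, Benjamini-Hochberg, threshold 0.05). It leaves 1 residual degree of freedom, from the controls, whose spread is assumed to hold for the single RetSat shRNA array too. The script was tested on simulated data, with noise taken from RetSat shRNA and empty vector 2, the closest pair. The wider spread between the controls was not simulated, so that check does not show how many real changes would be found here. The small number of arrays limits the precision. Promoters were searched in Python 3.11.15.

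The members and lists were chosen with earlier results of these data known. All 34 members are given, and up to 3 genes of each further list, ranked by whichever difference from a control was smaller, where both have 1 sign. Genes named outside that rule are marked as such. Alternatives were the offset (1 or 50), centring or quantile normalization, no filter or one at the 75th percentile, the mean of all probe sets, a robust variance prior, and leaving out each empty-vector array.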

Additional observations from a re-analysis of the deposited data

How the results depend on the processing

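The median of the ATF4 genes against the mean of the controls (0.25 log2) ranged from 0.20 to 0.28 over the offsets, scalings, filters and the mean of all probe sets, but was 0.08 without empty vector 1 and 0.50 without empty vector 2. That of the ER genes (0.08) was 0.11 with centred arrays, 0.11 after quantile normalization and 0.036 with the mean of all probe sets, and ranged from 0.053 to 0.091 when 1 empty-vector array was left out. Of the members' own differences, the offsets, centring and the filters changed 0 signs among those tested. Quantile normalization turned Phgdh and Hspa5, the mean of all probe sets turned Edem1, leaving out empty vector 2 turned Mthfd2 and Eif2ak3, and leaving out empty vector 1 turned 10 members.

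The 64 genes at least 2-fold from both controls became 110 with an offset of 1, 7 with an offset of 50, 800 without a filter and 1 with the filter at the 75th percentile, and 188 to 1478 when a single control was left. limma passed 0 genes, 1 with centred arrays and 7 with a robust prior, none of them a member. With 1 control left no residual degrees of freedom remain, so these are values with no test. No paired analysis was possible because the groups share only 1 replicate number, that of empty vector 2 and RetSat shRNA. With no detection calls used, dim signals may lie at background.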
